A study of Homo sapiens with 4 samples.

Results

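The genes described here are 10 transcripts by which the output of the ERK pathway is commonly read: DUSP4, DUSP5, DUSP6, SPRY2, SPRY4, SPRED1, SPRED2, ETV4, ETV5 and PHLDA1. They were chosen by name, as the 10 rows of these symbols among 26475 gene symbols counted, by a rule that uses no measured value. All 10 had at least 420 reads in every library, and all are among the 15204 genes with at least 10 reads in 1 library or more that were compared.

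RNA was sequenced from mammospheres, the spheres that breast cells form when grown without attachment, of the cell line MDA-MB-468, which is established from a triple-negative breast cancer of the basal-like kind. The cells carried Cas9 and a guide RNA expressed only under doxycycline (dox), and they were sorted pools rather than single clones. The 4 conditions were the control guide without dox (CTL) or with dox (CTL+dox), and TCOF1 gRNA2 without dox (gRNA2) or with dox (gRNA2+dox). The first 3 are given as wild type and the last as the TCOF1 knockout. Each condition had 1 library and no replicate, so every comparison is one of libraries, with intervals that hold counting error only and not the spread between cultures. The sphere medium of the study contained EGF, a ligand of EGFR upstream of ERK, in all conditions.

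Growth factor receptors pass their signal through Ras, the RAF kinases and MEK to ERK, a kinase that enters the nucleus and switches on a set of genes. Several of these genes encode brakes on the same route. The dual-specificity phosphatases remove the activating phosphates of ERK and related kinases, and the Sprouty and SPRED proteins act further up, at receptors, Ras and RAF. ETV4 and ETV5 are ETS family transcription factors of the PEA3 group, which carry the signal onwards, and the repressor CIC holds them down when ERK is inactive. As RNA levels, these genes report on ERK only indirectly, and no phosphorylated protein was measured in these files.

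Counts on genes summed to between 19960644 and 26322847 per library. Reads on TCOF1, the gene cut by the guide, numbered 1019 (CTL), 754 (CTL+dox), 1318 (gRNA2) and 437 (gRNA2+dox), or 49.9, 33.5, 50.6 and 20.0 CPM, which are reads scaled by library total and TMM factor to a common size. The gRNA2+dox library was the lowest, at a TCOF1 log2 ratio of -1.34 (95% interval -1.50 to -1.18) to gRNA2, and CTL+dox was also below CTL, at -0.58 (-0.71 to -0.44). Epithelial and basal markers such as KRT5 and KRT17 summed to between 14799 and 16496 CPM. The luminal receptor list summed to between 13.0 and 15.0 CPM, nearly all of it ERBB2. White blood cell, fibroblast and endothelial lists summed to between 10.8 and 13.0, between 16.7 and 21.2 and between 0.916 and 1.54 CPM. Nearly all of the white blood cell sum was CD14, and nearly all of the fibroblast sum was COL1A1. Of the endothelial markers, CDH5 had 0 reads in all 4 libraries. VWF had 21, 17, 28 and 15 reads and PECAM1 3, 7, 12 and 5, in CTL, CTL+dox, gRNA2 and gRNA2+dox. In bulk RNA, fewer cells of a type and less RNA per cell cannot be told apart.

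The lower ETV4 level in gRNA2+dox was the widest difference among the 10 genes. ETV4 stood at nearly the same level in the 3 other libraries, and its paralogue ETV5 was also lowest in gRNA2+dox. PHLDA1 was highest there, while the phosphatases and the Sprouty genes differed little between gRNA2+dox and gRNA2. None of the 10 genes reached a 1.5-fold difference in any comparison. Of all genes compared, between 3.13% and 6.77% did so with an interval outside 1, depending on the comparison. The 10 genes together took 0.178%, 0.177%, 0.187% and 0.196% of the counts in CTL, CTL+dox, gRNA2 and gRNA2+dox. These shares are weighted towards PHLDA1, which held 15816 of the 35503 reads of the 10 genes in CTL and 21758 of 43385 in gRNA2+dox.

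Per kilobase of exon, the scale on which levels of different genes can be set side by side, the 10 genes spanned a wide range. PHLDA1 was the highest, with between 130 and 168 CPM per kilobase over the 4 libraries, followed by DUSP5 with between 94.1 and 111. SPRY2, DUSP6, DUSP4, SPRY4, ETV4 and SPRED2 lay between 13.2 and 51.0 CPM per kilobase. SPRED1 and ETV5 were the lowest, with between 2.73 and 3.52 and between 3.33 and 4.22. The levels below are CPM without this division, since they compare 1 gene across libraries.

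DUSP4, a nuclear phosphatase that acts on ERK and on the stress kinases, lies on chromosome 8. Its reads numbered 2727 (CTL), 3239 (CTL+dox), 3901 (gRNA2) and 3163 (gRNA2+dox), or 134, 144, 150 and 145 CPM. CTL was the lowest library, and the 3 others differed from their neighbours in level by no more than counting error.

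DUSP5, a nuclear phosphatase specific for ERK, is encoded at chr10:110497907-110511533 of GRCh38. Its reads numbered 5705, 6348, 6213 and 5627 in the same order, or 279, 282, 239 and 258 CPM. Both libraries of the gRNA2 pool were below both control libraries, and CTL and CTL+dox did not differ beyond counting error. DUSP5P1, a pseudogene of DUSP5, had between 1 and 12 reads in the 4 libraries, and reads that match both copies were not counted by the authors' tool.

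DUSP6, at chr12:89347235-89352501, is the cytoplasmic phosphatase of ERK and is widely used as a measure of ERK activity. Its reads numbered 2173, 2542, 3246 and 2665, or 106, 113, 125 and 122 CPM. The order was the same as for DUSP4, with CTL lowest and gRNA2 highest, and gRNA2+dox and gRNA2 did not differ beyond counting error.

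SPRY2 and SPRY4 encode Sprouty proteins, induced inhibitors of receptor tyrosine kinase signalling. SPRY2, at chr13:80335976-80341126, had 2982, 3450, 4101 and 3577 reads, or 146, 153, 157 and 164 CPM. It was highest in gRNA2+dox, but no neighbours in its order of levels differed beyond counting error. SPRY4, at chr5:142310430-142325021, had 2229, 2350, 3469 and 2720 reads, or 109, 104, 133 and 125 CPM. Both gRNA2 libraries were above both control libraries, with gRNA2 the highest. SPRY4-IT1, a transcript of the same locus, had between 2 and 5 reads, and the counts used do not separate strands.

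SPRED1 and SPRED2 encode Sprouty-related proteins, and SPRED1 brings neurofibromin, an inactivator of Ras, to the membrane. SPRED1, at chr15:38252836-38357249, had 448, 614, 588 and 462 reads, or 21.9, 27.3, 22.6 and 21.2 CPM. Its CTL+dox library stood above the other 3, which did not differ from their neighbours in level beyond counting error. SPRED2, at chr2:65307175-65432599, had 1675, 2014, 2404 and 1982 reads, or 82.0, 89.4, 92.3 and 90.7 CPM. CTL was the lowest, and the 3 others did not differ from their neighbours.

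ETV4, at chr17:43527846-43546340, was counted with 1295 (CTL), 1405 (CTL+dox), 1653 (gRNA2) and 1011 (gRNA2+dox) reads. These counts give 63.4, 62.4, 63.5 and 46.3 CPM. The single step in its order was between gRNA2+dox and the other libraries. ETV5, at chr3:186046314-186109089, had 453, 495, 634 and 420 reads, or 22.2, 22.0, 24.3 and 19.2 CPM. Its lowest library was the same as that of ETV4, and CTL+dox, CTL and gRNA2 did not differ from their neighbours beyond counting error.

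PHLDA1, at chr12:76025447-76031776, encodes a protein with a pleckstrin homology-like domain whose transcript is induced by growth factors. It had 15816, 17337, 23087 and 21758 reads, or 774, 770, 886 and 996 CPM. The control libraries did not differ beyond counting error, gRNA2 was above them and gRNA2+dox was above gRNA2.

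The ratio of the highest to the lowest library was between 1.12 (DUSP4 and SPRY2) and 1.37 (ETV4). The median log2 range over the 4 libraries was 0.29 for the 10 genes. Over the 7133 genes with at least 420 reads in every library, referred to as genes of like depth, it was 0.21.

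The comparison of gRNA2+dox with gRNA2 asks how the knockout library differed from the same cell pool without dox. ETV4 was at 0.730 times its gRNA2 level, a log2 ratio of -0.45 (-0.57 to -0.34). ETV5 was at 0.790 times its gRNA2 level, a log2 ratio of -0.34 (-0.52 to -0.16). PHLDA1 was at 1.12 times its gRNA2 level, a log2 ratio of 0.17 (0.14 to 0.20). The PEA3 factors and PHLDA1 thus lay on opposite sides of 0.

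Of the negative regulators, DUSP5 was slightly higher at 0.11 (0.06 to 0.16) and SPRY4 slightly lower at -0.10 (-0.17 to -0.02). DUSP4, DUSP6, SPRY2, SPRED1 and SPRED2 had log2 ratios between -0.09 and 0.06, with intervals that included 0. DUSP6, among the closest to 0, was at -0.03 (-0.10 to 0.04). This interval holds counting error only, so it does not bound a difference between cultures.

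A gene was called where it differed by at least 1.5-fold with a 95% interval outside 1. Of the 10 genes 0 were called, against 4.09% of all genes compared. By the interval alone 2 were higher (DUSP5 and PHLDA1) and 3 lower (SPRY4, ETV4 and ETV5), beside 20.6% and 24.3% of the genes of like depth. The median log2 ratio of the 10 genes was -0.04, beside -0.02 over all genes compared. At these depths an interval outside 1 was thus common among all genes. With 1 library per condition, no test of the knockout itself was possible.

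The comparison of gRNA2+dox with CTL+dox sets the knockout library against the control guide under the same drug, and it shares the gRNA2+dox library with the comparison above. ETV4 was again the lowest, at 0.742 times its CTL+dox level and a log2 ratio of -0.43 (-0.55 to -0.31). SPRED1 was at -0.37 (-0.54 to -0.19), with CTL+dox its highest library. ETV5 was at -0.19 (-0.38 to -0.00195), an interval that ends next to 0. PHLDA1 was at 1.29 times its CTL+dox level, a log2 ratio of 0.37 (0.34 to 0.40). SPRY4 was also higher, at 0.26 (0.18 to 0.34).

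DUSP6 and SPRY2 were slightly higher, at 0.11 (0.03 to 0.19) and 0.10 (0.03 to 0.16). DUSP5 was slightly lower, at -0.13 (-0.18 to -0.08). DUSP4 and SPRED2 were at 0.01 (-0.06 to 0.08) and 0.02 (-0.07 to 0.11). The 10 genes therefore spread to both sides, with a median log2 ratio of 0.02 beside 0.00 over all genes compared. Of the 10, 0 were called at 1.5-fold, against 6.77% of all genes. By the interval alone 4 were higher and 4 lower, beside 32.9% and 24.3% of the genes of like depth.

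The effect of dox with a control guide was read from CTL+dox against CTL. ETV4, ETV5 and PHLDA1, the genes set apart in gRNA2+dox, had log2 ratios of -0.02 (-0.13 to 0.09), -0.01 (-0.20 to 0.17) and -0.01 (-0.04 to 0.02). SPRED1 differed most, at 1.24 times its CTL level and a log2 ratio of 0.31 (0.14 to 0.49). DUSP4, SPRED2 and DUSP6 were slightly higher with intervals above 0, at 0.11, 0.12 and 0.08, but that of DUSP6 included 0 with the 3 other scalings and that of SPRED2 after thinning. Of the 10 genes 0 were called, against 3.13% of all genes. By the interval alone 4 were higher and 0 lower, beside 26.6% and 22.1% of the genes of like depth. With total counts 3 were higher and 2 lower (SPRY4 and PHLDA1). The median log2 ratio of the 10 genes was 0.04, beside 0.01 over all genes compared.

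The libraries of the 2 cell pools without dox, gRNA2 and CTL, differed although neither is given as a knockout and their TCOF1 log2 ratio was 0.02 (-0.10 to 0.14). SPRY4 was at 1.22 times its CTL level, a log2 ratio of 0.29 (0.21 to 0.36). DUSP6 was at 0.23 (0.15 to 0.31) and PHLDA1 at 0.19 (0.17 to 0.22). DUSP4, SPRED2 and SPRY2 were at 0.17, 0.17 and 0.11, and DUSP5 was lower at -0.23 (-0.28 to -0.18). ETV4, ETV5 and SPRED1 had intervals that included 0, with ETV4 at 0.00 (-0.10 to 0.11).

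Of the 10 genes 0 were called in this comparison, against 4.06% of all genes. By the interval alone 6 were higher and 1 lower, beside 32.4% and 14.4% of the genes of like depth. The median log2 ratio of the 10 genes was 0.15, beside 0.03 over all genes compared. EGFR, the receptor of the EGF in the medium, had a log2 ratio of 0.28 (0.27 to 0.30) here. Its part in the levels of the 10 genes was not tested.

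Across all 4 libraries, 6 of the 10 genes were higher in both gRNA2 libraries than in both control libraries: DUSP4, DUSP6, SPRY2, SPRY4, SPRED2 and PHLDA1. This order held for 24.8% of all genes compared and for 31.2% of the genes of like depth. DUSP5 alone was lower in both gRNA2 libraries, an order held by 20.5% of all genes and 17.4% of those of like depth. SPRED1, ETV4 and ETV5 were lowest in gRNA2+dox, as were 26.3% of all genes and 20.6% of those of like depth. SPRY2 and PHLDA1 were highest there, as were 23.8% and 25.6%. The cell pool and the guide cannot be told apart in these 4 libraries.

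Promoter sequences are printed for 3 of the 6 genes that were higher in both gRNA2 libraries, because they hold a motif of the ETS factors or of CIC, the factors that act on genes of this pathway. They are the 250 bases before the transcription start in RefSeq's annotation of GRCh38.p14, 5′ to 3′ on the strand of the gene, which is the reverse strand in each. Capitals mark the motif. For DUSP6, at chr12:89352502-89352751, they mark the reverse complement of the CIC octamer TCAATGGA, found 24 bases before the start. For PHLDA1, at chr12:76031777-76032026, they mark the reverse complement of the ETS core CCGGAA, 89 bases before the start, and for SPRY2, at chr13:80341127-80341376, the same core on the forward strand, 142 bases before the start.
DUSP6: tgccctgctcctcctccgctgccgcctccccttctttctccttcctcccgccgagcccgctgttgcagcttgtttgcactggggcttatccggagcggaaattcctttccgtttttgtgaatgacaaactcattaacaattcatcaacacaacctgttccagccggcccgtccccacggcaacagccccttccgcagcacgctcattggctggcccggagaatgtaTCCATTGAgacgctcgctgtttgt
PHLDA1: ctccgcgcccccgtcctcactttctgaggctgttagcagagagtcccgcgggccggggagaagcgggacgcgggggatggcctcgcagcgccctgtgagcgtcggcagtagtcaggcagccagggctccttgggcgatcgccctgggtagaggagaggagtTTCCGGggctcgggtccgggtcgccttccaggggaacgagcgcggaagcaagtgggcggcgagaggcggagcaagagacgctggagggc
SPRY2: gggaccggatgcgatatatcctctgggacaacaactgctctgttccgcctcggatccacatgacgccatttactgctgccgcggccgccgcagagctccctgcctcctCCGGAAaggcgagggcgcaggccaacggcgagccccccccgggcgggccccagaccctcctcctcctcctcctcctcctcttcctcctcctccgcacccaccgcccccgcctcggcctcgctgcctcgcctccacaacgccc

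The sequence table matched 6 of the 10 genes, with 9 promoters, and held none for DUSP4, DUSP5, ETV4 and ETV5. SPRY2 and SPRED2 had more than 1 annotated start, and the SPRY2 windows not printed held none of the motifs searched. On both strands, CCGGAA was in 2 of the 9 and in 14.5% of 35116 promoters of all genes. The CIC octamers TGAATGAA, TGAATGGA, TCAATGAA and TCAATGGA were in 1 of the 9, that of DUSP6, and in 3.18% of all promoters. The AP-1 motif TGANTCA, the cAMP response element TGACGTCA and the CArG box were in 0 of the 9, and in 6.57%, 1.65% and 1.16% of all promoters. Each window printed held a match to only 1 of the motifs searched. A match describes the letters of a window and says nothing of binding.

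The difference of the dox log2 ratios, gRNA2+dox against gRNA2 minus CTL+dox against CTL, asks whether a gene moved with dox in the gRNA2 pool beyond its movement in the control pool. It was -0.43 (-0.59 to -0.27) for ETV4, which was level in the control pool. SPRED1 was at -0.41 (-0.66 to -0.16), and its difference came with a higher CTL+dox level in the control pool. ETV5 was at -0.33 (-0.58 to -0.07), and at -0.20 (-0.48 to 0.07) after thinning all libraries to the smallest total. PHLDA1 was at 0.18 (0.14 to 0.22) and DUSP5 at 0.10 (0.03 to 0.17).

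DUSP4, SPRED2 and DUSP6 had small negative differences, of -0.16 (-0.25 to -0.06), -0.15 (-0.28 to -0.02) and -0.12 (-0.23 to -0.0043). SPRY2 and SPRY4 were at -0.01 and -0.03 with intervals that included 0. Of the 10 genes 0 differed by 1.5-fold, against 5.54% of all genes. By the interval alone 2 were higher and 6 lower, beside 16.9% and 21.5% of the genes of like depth. With DESeq2 size factors or total counts the 6 became 4, without DUSP6 and SPRED2, and after thinning 3, without ETV5 as well. With an assumed spread between cultures, a biological coefficient of variation of 0.1, 0 of the 10 genes kept an interval outside 0. The median difference of the 10 genes was -0.13, beside -0.02 over all genes compared.

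For its heatmap of lower genes the study set cutoffs of a log2 ratio beyond 1 and a value beyond 0.5 from the program GFOLD. Here these cutoffs were applied in both directions, with a bound from the counts in place of GFOLD. They were passed by 0 of the 10 genes in each comparison of libraries. Of all genes compared, 0.599% passed them against gRNA2, 1.51% against CTL+dox, 0.257% in CTL+dox against CTL and 0.566% in gRNA2 against CTL.

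At a lower limit of 1.2-fold, chosen after the data were seen, some of the 10 genes were called. ETV4 and ETV5 were lower against gRNA2, as were 6.69% of all genes. PHLDA1 was higher against CTL+dox, as were 9.73%, and SPRED1 and ETV4 were lower, as were 10.4%. SPRED1 was higher in CTL+dox against CTL, as were 4.98%, and SPRY4 was higher in gRNA2 against CTL, as were 6.16%. SPRED1, ETV4 and ETV5 had lower differences of the dox log2 ratios, as did 8.14% of all genes. ETV4 was the gene called at this limit in both comparisons of gRNA2+dox.

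Around these 10 genes, 75 other genes of the pathway in 7 lists were compared. Against gRNA2, 0 of the 75 were called higher and 2 lower, DUSP2 and KIT, where 2.39% of all genes were called lower. Against CTL+dox, 0 were called higher and 4 lower, DUSP2, KIT, EREG and FGF2, where 4.18% of all genes were. In CTL+dox against CTL 0 were called. In gRNA2 against CTL only FGF2 was, as lower, where 2.52% of all genes were. In the difference of the dox log2 ratios 3 were lower, DUSP2, VGF and KIT, where 3.14% of all genes were. These counts are near the shares over all genes. Their median log2 ratios to gRNA2 and CTL+dox were -0.06 and 0.03.

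The cascade from the adaptor GRB2 through the Ras, RAF and MEK genes to ERK itself was represented by 22 genes. None of them was called in any comparison, where between 3.13% and 6.77% of all genes were. Their median log2 ratios were 0.00 against gRNA2 and 0.02 against CTL+dox. KSR1, a scaffold of the cascade, was its lowest gene against gRNA2, with 110, 92, 191 and 124 reads in CTL, CTL+dox, gRNA2 and gRNA2+dox and a log2 ratio of -0.37 (-0.71 to -0.04). Against CTL+dox KSR1 was its highest, at 0.47 (0.07 to 0.88).

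Among 7 other MAP kinase phosphatases, 1 was called lower. DUSP2, a nuclear phosphatase, had 76, 93, 96 and 50 reads. Its log2 ratio was -0.68 (-1.21 to -0.18) to gRNA2 and -0.84 (-1.38 to -0.34) to CTL+dox, against 0.15 (-0.30 to 0.61) with dox in the control pool. DUSP1, the immediate early phosphatase, was at 0.23 (0.10 to 0.37) against gRNA2, and the list's medians were -0.14 and 0.06. DUSP9 was at 0.64 (-0.04 to 1.35) against CTL+dox, on 31 and 47 reads.

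The 3 other genes of the Sprouty and SPRED families had median log2 ratios of -0.33 and -0.17, with 0 called. SPRY1 had 150, 182, 253 and 157 reads, a log2 ratio of -0.43 (-0.73 to -0.14) to gRNA2 and of -0.17 (-0.49 to 0.15) to CTL+dox. It was highest in gRNA2, as SPRY4 was.

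Of 9 other ETS factors and CIC, 0 were called, and their medians were 0.02 and 0.16. ETV1, the third PEA3 factor, had 240, 320, 401 and 301 reads and a log2 ratio of -0.16 (-0.38 to 0.06) to gRNA2. Its difference of the dox log2 ratios was -0.43 (-0.76 to -0.11), with dox at 0.27 (0.03 to 0.52) in the control pool. CIC, the repressor of the PEA3 genes, had 5865, 5896, 8990 and 7073 reads. Its log2 ratio was -0.09 (-0.14 to -0.05) to gRNA2 and 0.31 (0.26 to 0.36) to CTL+dox.

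Of 15 other ERK targets, 0 were called in the comparisons of libraries, with medians of -0.07 against gRNA2 and 0.20 against CTL+dox. EGR1, an immediate early transcription factor, had 1042, 976, 1809 and 1237 reads and log2 ratios of -0.29 (-0.40 to -0.19) and 0.39 (0.26 to 0.51). FOSL1, an AP-1 subunit, had 7560, 7933, 12277 and 9590 reads and log2 ratios of -0.10 (-0.14 to -0.06) and 0.32 (0.28 to 0.36). Like SPRY4, both were higher in the gRNA2 libraries than in the control libraries. CCND1, which encodes cyclin D1, had 4398, 4766, 4939 and 3657 reads and was lower at -0.18 (-0.24 to -0.12) and -0.34 (-0.40 to -0.28). It was also lower in gRNA2 against CTL, at -0.18 (-0.24 to -0.12). VGF was called in the difference of the dox log2 ratios, at -0.76 (-1.34 to -0.18) on between 71 and 122 reads. With dox, VGF was at 0.58 (0.14 to 1.03) in the control pool and -0.18 (-0.59 to 0.22) in the gRNA2 pool.

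Upstream, 10 receptors had medians of -0.21 and -0.03, and 1 was called lower in both comparisons. KIT had 27, 31, 20 and 3 reads, a log2 ratio of -2.31 (-4.88 to -0.73) to gRNA2 and of -3.13 (-5.68 to -1.64) to CTL+dox. EGFR had 54707, 55292, 84853 and 73514 reads, a log2 ratio of 0.05 (0.03 to 0.06) to gRNA2 and of 0.46 (0.44 to 0.47) to CTL+dox.

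Of 10 receptor ligands 9 were compared, since HGF had at most 3 reads in any library. Their medians were -0.08 and -0.19. EREG, the EGFR ligand epiregulin, had 546, 577, 493 and 328 reads, and was at -0.33 (-0.54 to -0.13) against gRNA2 and -0.77 (-0.97 to -0.57) against CTL+dox. Without dox, EREG was already lower in gRNA2 than in CTL, at -0.50 (-0.68 to -0.32). Its difference of the dox log2 ratios was -0.27 (-0.53 to -0.01). FGF2 had 229, 220, 165 and 132 reads, and was at -0.07 (-0.41 to 0.27) and -0.69 (-1.01 to -0.37). Its log2 ratio in gRNA2 against CTL was -0.82 (-1.12 to -0.53), so most of its distance lay between the cell pools.

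Across the 10532 genes with at least 100 reads in every library, the pattern of ETV4 over the 4 libraries was compared with that of every other gene by the root mean square difference of log2 CPM after centring. MAP2, a microtubule-associated protein gene, was nearest at 0.0213, with 325, 339, 411 and 248 reads in CTL, CTL+dox, gRNA2 and gRNA2+dox. IGFBPL1 followed at 0.0245, with 206, 234, 266 and 163 reads. LIMK2, which encodes a kinase of cofilin, was at 0.0246, with 979, 1088, 1246 and 794 reads. All 3 were lowest in gRNA2+dox, as ETV4 was, which follows from how they were picked. GTSE1 was at 0.0266. ETV5 ranked 296 of these genes, at 0.101. With 4 libraries, many genes can share such a pattern.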

How the data were processed

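RNA from 4 mammosphere cultures was measured by RNA-seq, 1 library per condition. The authors trimmed reads with fastp, aligned them with STAR and deposited raw counts of reads per gene. The submitters' processing notes name hg38. Only reads with a single mapped place enter STAR's counts, and reads shared by overlapping genes are set aside. The unstranded counts were used, since the first strand held between 49.0% and 49.1% of stranded reads. The lines of unassigned reads were left out, and between 79.7% and 81.0% of reads fell on genes.

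Counts were scaled with TMM factors (edgeR 4.0.16, R 4.3.3; 1.02, 1.00, 0.990 and 0.985 for CTL, CTL+dox, gRNA2 and gRNA2+dox). Log2 ratios used a prior count of 0.5 and exact 95% Clopper-Pearson intervals (scipy 1.17.1, Python 3.11.15). These cover counting error only, and reads are not independent molecules. The interval of a difference of log2 ratios used their summed counting variances. The study's cutoffs used a Poisson bound at the 1% quantile in place of GFOLD. With 1 library per condition no p-value was computed. A count of 3 corresponded to between 0.115 and 0.147 CPM.

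The alternatives tried were scaling by total counts, by upper quartiles and by DESeq2 1.42.0 size factors, no filter, at least 50 counts, a prior count of 5, thinning to the smallest total, calls at 2-fold, 99% intervals, an assumed biological coefficient of variation of 0.1 and, chosen after the data were seen, calls at 1.2-fold. The 10 genes were chosen by name, and the lists were chosen with earlier results of these data known. Named were the 10 genes, TCOF1, genes of the lists that a sentence turns on (at most the 3 highest and 3 lowest), and, of the 5 genes nearest to ETV4 (the one with the widest range), those that can be named, since some items are not reported here. Exon lengths came from GENCODE 44 by symbol, and positions and promoters from RefSeq for GRCh38.p14.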

Additional observations from a re-analysis of the deposited data

Results flagged for a closer look

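For 8 of the 10 genes the log2 ratio with dox differed between the gRNA2 pool and the control pool by more than counting error with TMM scaling, and these 8 are given here for that reason. With DESeq2 size factors or total counts 6 did so, without DUSP6 and SPRED2, and after thinning or with 99% intervals 5, without ETV5 as well. With an assumed biological coefficient of variation of 0.1, 0 of the 10 genes did so. Whether they differ beyond the spread between cultures was not tested, since each condition had 1 library, and 38.5% of the genes with at least 420 reads in every library showed such a difference. ETV4 differed by -0.43 on the log2 scale, SPRED1 by -0.41 and ETV5 by -0.33. DUSP4 differed by -0.16, SPRED2 by -0.15 and DUSP6 by -0.12. PHLDA1 differed by 0.18 and DUSP5 by 0.10. ETV4 and ETV5 were at log2 ratios of -0.02 and -0.01 with dox in the control pool, whereas SPRED1 was at 0.31 there.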

How the results depend on the processing

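Of 165 summary values under 11 alternatives, 159 kept their side of the threshold or stayed within the spread, and 6 moved, all with calls at 1.2-fold in place of 1.5-fold. Against gRNA2, 2 genes were then lower (ETV4 and ETV5). Against CTL+dox, 1 was higher (PHLDA1) and 2 were lower (SPRED1 and ETV4). With dox in the control pool 1 was higher (SPRED1), in gRNA2 against CTL 1 was higher (SPRY4), and in the difference of the dox log2 ratios 3 were lower (SPRED1, ETV4 and ETV5). Of 550 values of single genes, 549 stayed within counting error and 0 of those with an interval outside 0 changed sign. The exception was PHLDA1 in gRNA2 against CTL, at 0.15 with total counts. Many of these agreements were fixed in advance. The changed filters, call limits and interval widths cannot alter a log2 ratio of these genes or their median. The filters, stricter calls and wider intervals could likewise only keep a count of 0 called genes at 0. Only the other scalings, the larger prior count and thinning could move a log2 ratio.

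Over the scalings and thinning, ETV4 against gRNA2 ranged from -0.46 to -0.43 and ETV5 from -0.35 to -0.23. Intervals that came to include 0 were those of ETV5 against CTL+dox with DESeq2 size factors (-0.38 to 0.00141), after thinning (-0.36 to 0.04) and at 99%, of SPRY2 in gRNA2 against CTL with total counts, of DUSP6 in CTL+dox against CTL with the 3 other scalings and at 99%, of SPRED2 there after thinning, and of DUSP6 and SPRED2 in the difference with DESeq2 size factors, total counts, thinning and 99% intervals, where ETV5 was lost too after thinning and at 99%. SPRY2 against gRNA2 came to lie above 0 with DESeq2 size factors and after thinning, and SPRY4 and PHLDA1 in CTL+dox against CTL below 0 with total counts. With an assumed biological coefficient of variation of 0.1, only the ETV4 log2 ratios to gRNA2 (-0.87 to -0.04) and to CTL+dox (-0.85 to -0.01) kept an interval outside 0 among the 10 genes. The median of the 10 genes ranged from 0.10 to 0.15 in gRNA2 against CTL, and from -0.05 to -0.03 against gRNA2. Signs flipped between scalings for log2 ratios whose interval included 0: DUSP4 and SPRED2 against CTL+dox, DUSP5 in CTL+dox against CTL, SPRED1 and ETV4 in gRNA2 against CTL, SPRY2 in the difference, and the median of the 10 genes against CTL+dox (-0.01 to 0.02). No scaling moved the median of all genes by over 0.1. No paired analysis was possible because no condition was sequenced more than once, and leaving out a replicate was not run for the same reason. Depth limits the genes with few reads, such as KIT and DUSP2.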
